A study of Sus scrofa with 24 samples.

Results

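The transcripts described here belong to the insulin signalling and glucose uptake pathway of porcine preadipocytes, the fibroblast-like precursors of fat cells. The 10 genes were chosen by symbol, as the receptor INSR, the adaptors IRS1 and IRS2, the receptor-binding inhibitor GRB10, the phosphoinositide 3-kinase subunit PIK3R1, the kinases AKT1 and AKT2, the transcription factor FOXO1, the phosphodiesterase PDE3B and the glucose transporter SLC2A4. Of these 10 genes, 9 were matched to a row among the 25462 genes of the expression table, AKT1 was not analysed here, and 8 passed the filter on low values together with 16135 genes in all. SLC2A4 did not pass it and is described by its values.

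Primary preadipocytes of 3 six-day-old Yorkshire piglets were taken from back subcutaneous fat (BF) and from digested tissue of the longissimus dorsi, a long muscle of the back. The cells from the muscle are the intramuscular (IMF) cells. Polyadenylated RNA was sequenced before adipogenic induction (day 0) and on days 2, 4 and 8 after it, with 3 replicates per depot and day and 24 libraries in 8 groups. The labels name no genetic change, and the day 0 cells had not been induced. Until day 2 the medium held insulin, the glucocorticoid dexamethasone and 3-isobutyl-1-methylxanthine (IBMX), which blocks many phosphodiesterases. From day 2 to 4 insulin was the only one of these in the medium, and from day 4 to 8 none was added. A group is named by its depot and day, so that IMF-8d stands for intramuscular cells on day 8. The labels do not say which animal a replicate came from, so the p-values measure the spread between these samples, which may be partly technical.

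Insulin binds its receptor at the cell surface, and the receptor phosphorylates the IRS adaptors, which recruit phosphoinositide 3-kinase and through it activate the AKT kinases. In fat and muscle cells this cascade moves the glucose transporter GLUT4 to the surface, holds FOXO transcription factors out of the nucleus, and activates PDE3B, which lowers cAMP and restrains lipolysis. Preadipocytes carry few insulin receptors and little GLUT4, and differentiated fat cells are rich in both.

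Values are FPKM, which divide the fragments of a gene by its transcript length and by the mapped fragments of the library. The table holds no read counts. Library totals lay between 307967 and 385768 FPKM, with 9985 to 10858 genes at 1 FPKM or more. Fold changes are log2 fold changes of FPKM + 1, the later day minus the earlier or IMF minus BF, with the standard error (SE) and the Benjamini-Hochberg adjusted p of limma over all genes tested. On this scale the changes of genes near 0 come out too small. A gene was called when its adjusted p was under 0.01 and its log2 fold change was 1 or more in either direction, and "rose" and "fell" are kept for called genes.

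Some libraries stood apart within the BF depot. On the first principal component, which held 52.3% of the variance, BF-2d replicate 3 lay at -17.2 while the other replicates of its group lay at 26.5 and 27.2. Replicates of BF-2d correlated across genes at 0.962 to 0.976, those of BF-4d at 0.965 to 0.991 and those of BF-8d at 0.969 to 0.988, beside 0.987 to 0.994 in the 4 IMF groups and 0.993 to 0.994 in BF-0d. For differences that rest on these 3 groups, fits without a library of the group were also made, and their values are given where a call or its size turned on them.

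The labelled cell type was checked against its markers. The sum of 8 adipocyte markers reached 9.16 to 10.9 FPKM in BF-0d, 23.1 to 93.4 in BF-2d, 182 to 318 in BF-4d and 281 to 622 in BF-8d. In IMF it was 2.79 to 3.67, 5.18 to 7.64, 11.4 to 14.3 and 97.2 to 143 FPKM on the same days. The genes of the list did not move together. PPARG, the regulator of fat cell differentiation, had means of 3.003, 2.76, 1.58 and 0.973 FPKM in BF on days 0, 2, 4 and 8 and at most 0.854 in IMF, and its partner CEBPA had 2.26, 9.37, 4.02 and 2.35 FPKM in BF and 1.75, 2.89, 5.89 and 1.76 in IMF. On day 8 nearly all of the sum was LPL, lipoprotein lipase, with a mean of 422 FPKM in BF-8d and 120 FPKM in IMF-8d, while the defining adipocyte genes ADIPOQ, PLIN1 and LEP had group means of at most 0.111, 0.0484 and 0.0104 FPKM, and ADIPOQ was listed at 0 in every IMF library. Among 8 myogenic markers, MYOD1 and MYF5 were listed at 0 in every library, and the sum was highest in IMF-0d, at 29.7 to 45.4 FPKM, nearly all of it DES. The stromal sum had medians of 12589, 6288, 2628 and 3290 FPKM in BF and of 12013, 10796, 9979 and 6473 FPKM in IMF on days 0, 2, 4 and 8, so that it moved with both the days and the depots. Most of it was COL1A1 and COL1A2, and other genes of the list went otherwise. PDGFRA had means of 77.0, 298, 342 and 228 FPKM in BF and of 60.1, 105, 144 and 226 in IMF. PDGFRB had 135, 155, 199 and 182 FPKM in BF and 84.0, 94.6, 98.1 and 97.7 in IMF. DCN had 1004, 1045, 597 and 497 FPKM in BF and 777, 1143, 1373 and 930 in IMF. The endothelial and immune sums reached at most 5.20 and 2.67 FPKM. The part of these differences in cell state in the results below was not tested, and in bulk RNA fewer cells of a type cannot be told apart from less RNA per cell.

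The genes lie on 7 chromosomes of the Sscrofa11.1 assembly in the RefSeq annotation. INSR (ENSSSCG00000013566) spans chr2:71797209-71939923 and PDE3B (ENSSSCG00000013388) chr2:44416934-44614075. IRS1 (ENSSSCG00000025729) spans chr15:128245846-128307321, IRS2 (ENSSSCG00000034763) chr11:76626158-76654639 and FOXO1 (ENSSSCG00000009370) chr11:15317222-15410059. GRB10 (ENSSSCG00000015631) spans chr9:136580363-136742552, PIK3R1 (ENSSSCG00000016958) chr16:46434757-46523626, AKT2 (ENSSSCG00000002989) chr6:48555785-48620472 and SLC2A4 (ENSSSCG00000023915) chr12:52628746-52634965.

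The 250 bases before the RefSeq start of INSR, at chr2:71796959-71797208 on the plus strand, are shown 5′ to 3′ because they alone of the 7 windows read held a match to the motifs searched. Capitals mark matches, on either strand, to TGACGTCA (the cAMP response element), TGACG (its core, which TGACGTCA contains), GTAAACA (a forkhead factor motif) and CAAAACA (an insulin response motif).
INSR: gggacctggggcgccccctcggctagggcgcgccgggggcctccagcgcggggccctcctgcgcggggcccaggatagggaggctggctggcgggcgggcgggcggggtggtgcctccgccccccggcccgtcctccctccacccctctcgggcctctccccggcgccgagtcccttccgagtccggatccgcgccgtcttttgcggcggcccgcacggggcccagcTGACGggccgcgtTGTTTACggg
The INSR stretch held TGACG at bases -23 to -19 before the start and the reverse complement of GTAAACA at bases -10 to -4. In the same window of 19278 pig genes, 1.70% held TGACGTCA, 19.7% TGACG, 2.24% GTAAACA and 4.19% CAAAACA. The windows of the other 6 genes read (IRS1, IRS2, GRB10, PIK3R1, AKT2 and FOXO1) held 0 matches to these letters. PDE3B was left out before the search, and no window was read for AKT1 or SLC2A4. Whether the windows of these genes hold a match is therefore unknown, and the INSR matches do not set it apart from them. The GC content, 60.0% to 82.4% over the 7 windows, lay above the median of 57.6% over all windows.

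**Figure D1:**
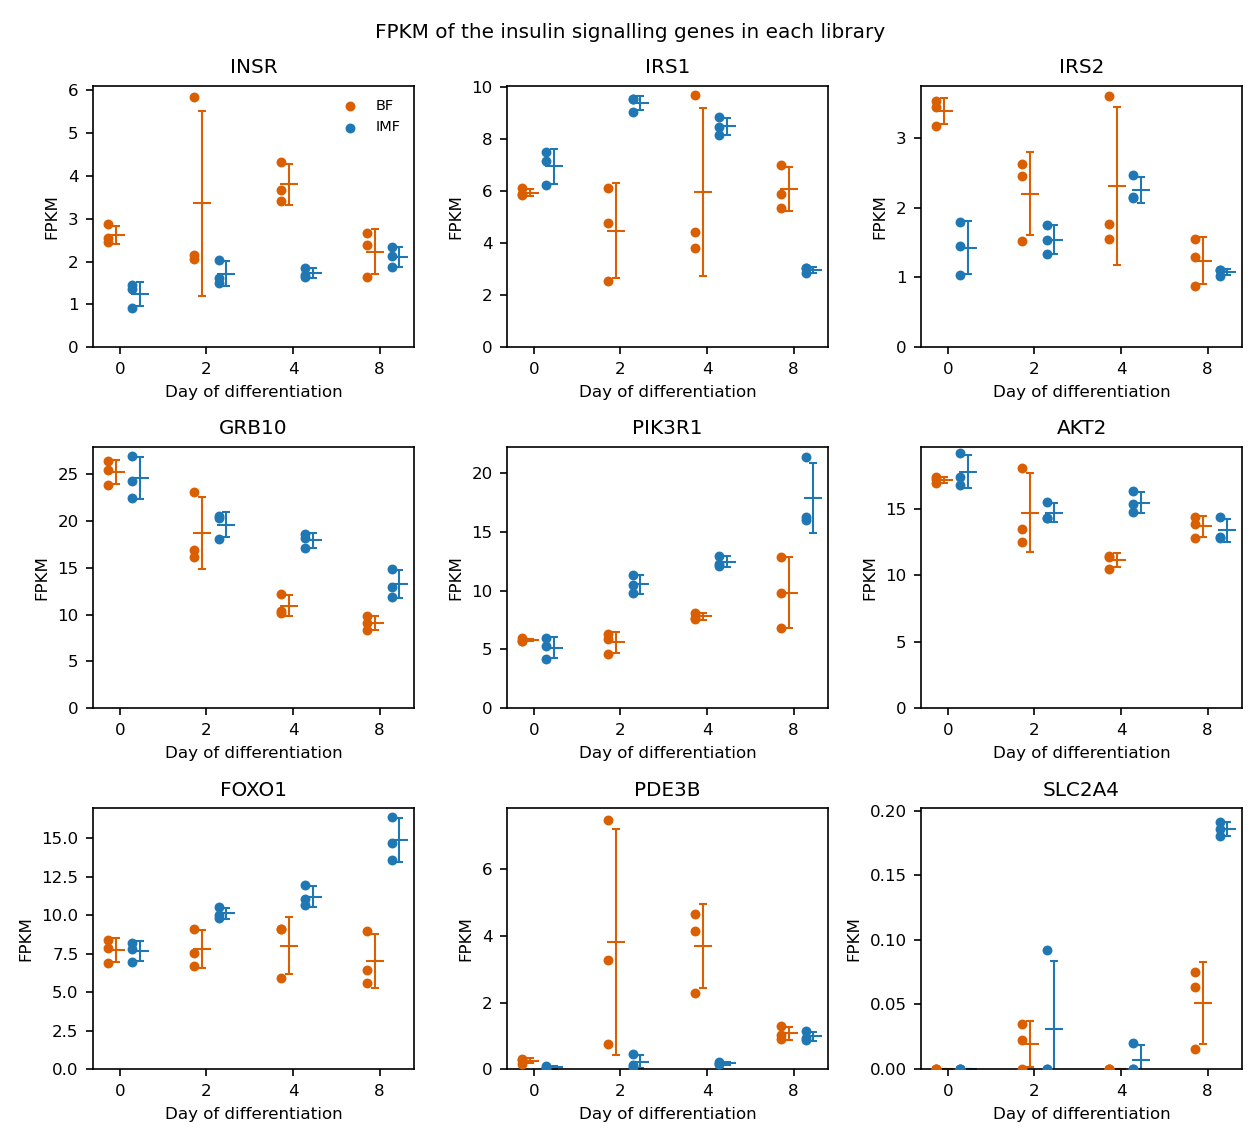
FPKM (vertical axis, from 0, scaled per gene) by day of differentiation for 9 genes, BF in orange and IMF in blue; points are libraries, horizontal ticks the group mean and bars the SD of 3 replicates. PDE3B was high in BF-2d and BF-4d, PIK3R1 and FOXO1 were highest in IMF-8d, IRS1 was lowest in IMF-8d, and SLC2A4 stayed below 0.2 FPKM.

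The receptor gene INSR lay higher in BF than in IMF until day 4 and overlapped between depots on day 8, without a call. In BF it stood at 2.87, 2.55 and 2.46 FPKM on day 0, at 5.85, 2.07 and 2.15 on day 2, at 3.67, 3.41 and 4.33 on day 4 and at 2.68, 1.64 and 2.39 on day 8. The IMF libraries held 1.35, 1.45 and 0.911 FPKM, at 1.6, 2.04 and 1.5, at 1.69, 1.86 and 1.64 and at 1.86, 2.33 and 2.12 on the same days. The depots did not overlap on days 0, 2 and 4 and did on day 8, and the mean of BF-2d rested on replicate 1. The log2 difference IMF minus BF was -0.70 on day 0 (SE 0.21, adjusted p = 0.0292), -0.58 on day 2 (adjusted p = 0.0481), -0.81 on day 4 (SE 0.21, adjusted p = 0.0041) and -0.05 on day 8 (adjusted p = 0.888). None of the 12 comparisons of INSR reached the limits for a call in limma, 5 of them had an unadjusted p under 0.05, and the day 4 difference was -1.09 with an adjusted p of 0.0039 when 0.1 in place of 1 was added to FPKM. Without BF-2d replicate 1 the day 2 difference was -0.20 (adjusted p = 0.322), and it was -0.76 to -0.78 without either other BF-2d library. The day 4 difference was -0.73 to -0.87 without 1 BF-4d library (adjusted p up to 0.0197).

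The adaptor genes IRS1 and IRS2 took different courses. IRS1 in BF stood at 6.12, 5.89 and 5.84 FPKM on day 0, at 4.77, 2.55 and 6.14 on day 2, at 4.43, 3.81 and 9.69 on day 4 and at 5.34, 7.02 and 5.91 on day 8. IRS1 in IMF stood at 7.52, 7.16 and 6.22 FPKM, at 9.56, 9.06 and 9.54, at 8.49, 8.84 and 8.18 and, on day 8, at 2.85, 3.03 and 3.04. IMF-8d lay below every other IMF library and below all BF libraries except BF-2d replicate 2, while BF showed no such step. IRS1 fell from IMF-4d to IMF-8d by 1.26 on the log2 scale (SE 0.23, adjusted p = 0.000259), and the call held in all 24 fits that left out 1 library.

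Over the whole 8 days the log2 change of IRS1 in IMF was -0.9995 (SE 0.23, adjusted p = 0.00163), just short of the fold limit. It was called at -1.20 with 0.1 added to FPKM, at -1.07 without IMF-0d replicate 3 and at -1.01 without IMF-8d replicate 2 or 3. The depots did not overlap on day 0, by a small margin (at most 6.12 FPKM in BF and at least 6.22 in IMF), on day 2, when IMF was higher (0.98, SE 0.23, adjusted p = 0.00375), or on day 8, when IMF was lower (-0.83, SE 0.23, adjusted p = 0.00735, and -0.74 to -0.91 without 1 BF-8d library, with adjusted p up to 0.0367). The day 2 difference was called without BF-2d replicate 1 (1.05, adjusted p = 0.00806) and without BF-2d replicate 3 (1.20, adjusted p = 0.000553), and it was 0.69 without BF-2d replicate 2 (adjusted p = 0.0345). On day 4 the depots overlapped through BF-4d replicate 3, with a difference of 0.54 (adjusted p = 0.0628) that was 0.89 without that library (adjusted p = 0.000769). The change from day 4 to 8 itself differed between depots by -1.37 (IMF minus BF, SE 0.32, adjusted p = 0.00524). The call lay near the p limit. It was lost in 10 of the 24 fits without 1 library, with the difference at -1.15 to -1.72 and the adjusted p at up to 0.0188 over all 24, and with only the compared groups in the fit (0.0146). Without BF-4d replicate 3, whose 9.69 FPKM exceeded the other replicates, the difference over days 0 to 8 (-1.02, adjusted p = 0.0315 with all libraries) was called at an adjusted p of 0.00377.

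IRS2 had its highest group mean in the uninduced subcutaneous cells, although BF-4d replicate 3 lay above every BF-0d library. The BF libraries held 3.18, 3.45 and 3.54 FPKM on day 0, at 2.46, 1.52 and 2.63 on day 2, at 1.55, 1.76 and 3.61 on day 4 and at 1.55, 0.88 and 1.296 on day 8. In IMF its levels were 1.45, 1.80 and 1.04 FPKM, at 1.75, 1.54 and 1.33, at 2.15, 2.14 and 2.47 and at 1.03, 1.10 and 1.10. The depots were separate on day 0 and overlapped on the other 3 days. The day 0 difference was -0.86 (SE 0.18, adjusted p = 0.00244), the difference between BF-0d and BF-8d was -0.98 (SE 0.18, adjusted p = 0.000158) and that between IMF-4d and IMF-8d was -0.65 (SE 0.18, adjusted p = 0.00904). These stayed under the fold limit, and 0 of 12 comparisons of IRS2 were called by limma, with 5 at an unadjusted p under 0.05. The BF change was called at -1.08 without BF-8d replicate 1, at -1.002 without BF-8d replicate 3, at -1.01 without BF-0d replicate 1 and at -1.41 with 0.1 added to FPKM.

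The balance of the adaptors shifted in opposite ways in the depots, by a ratio chosen for description after the values had been seen. IRS1 over IRS2, both in FPKM and so per length, had medians of 1.71, 1.94, 2.68 and 4.56 in BF on days 0, 2, 4 and 8. In IMF the medians were 5.18, 5.88, 3.94 and 2.76. The lowest IMF-0d ratio, 3.98, lay above the highest BF-0d ratio, 1.93, and on day 8 the lowest BF ratio, 3.44, lay above the highest IMF ratio, 2.78.

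**Figure D2:**
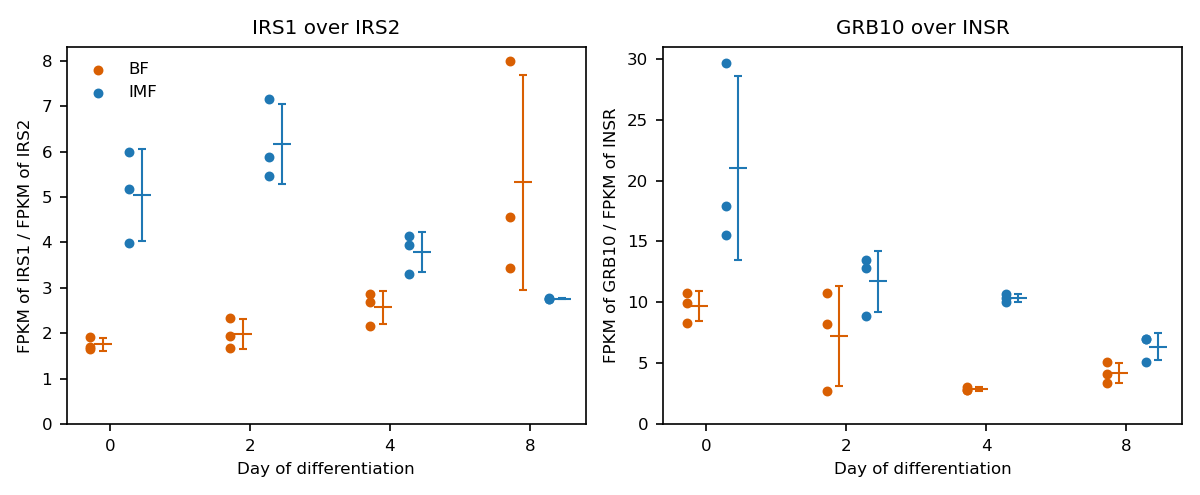
Ratio of FPKM of IRS1 to IRS2 (left) and of GRB10 to INSR (right), vertical axes from 0, by day of differentiation, BF in orange and IMF in blue; points are libraries, ticks the mean and bars the SD of 3 replicates. The IRS1 to IRS2 medians went from 1.71 to 4.56 in BF and from 5.18 to 2.76 in IMF, and the GRB10 to INSR medians from 9.98 to 4.11 and from 17.9 to 6.95.

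GRB10, which binds the activated receptor and restrains its signal, fell during culture of the subcutaneous cells. BF libraries held 23.8, 25.4 and 26.5 FPKM on day 0, at 16.1, 16.9 and 23.1 on day 2, at 10.2, 10.4 and 12.2 on day 4 and at 9.06, 8.32 and 9.80 on day 8. The IMF libraries held 24.3, 22.5 and 27.0 FPKM, at 20.5, 18.1 and 20.3, at 18.1, 18.6 and 17.1 and at 12.9, 11.9 and 14.9. The depots overlapped on days 0 and 2, and BF lay below IMF without overlap on days 4 and 8. GRB10 fell by 1.38 on the log2 scale between BF-0d and BF-8d (SE 0.12, adjusted p = 1.96e-08), a call kept in every fit that left out 1 library and under every other setting tried. The steps of GRB10 between successive BF days were -0.43 from day 0 to 2 (adjusted p = 0.0109), -0.71 from day 2 to 4 (adjusted p = 0.000442) and -0.25 from day 4 to 8 (adjusted p = 0.171). Without BF-2d replicate 3 the first 2 steps were -0.58 and -0.56, so their order rested on that library.

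In IMF the difference between day 8 and day 0 of GRB10 was -0.85 (SE 0.12, adjusted p = 1.69e-05), under the fold limit. The difference of the depots in this change was 0.54 (SE 0.17, adjusted p = 0.0353), and IMF minus BF was 0.67 on day 4 (adjusted p = 0.000179) and 0.50 on day 8 (adjusted p = 0.00326). The day 4 value was 0.62 to 0.74 without 1 BF-4d library, and the day 8 value 0.44 to 0.55 without 1 BF-8d library (adjusted p up to 0.0193). Against the receptor, GRB10 over INSR had medians of 9.98, 8.19, 2.82 and 4.11 in BF and of 17.9, 12.8, 10.4 and 6.95 in IMF, another ratio chosen after the values had been seen. The lowest IMF ratio lay above the highest BF ratio on days 0, 4 and 8, by the smallest margin on day 8 (5.11 against 5.07), while on day 2 the depots overlapped.

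PIK3R1, the regulatory subunit that docks phosphoinositide 3-kinase on the IRS proteins, rose in the intramuscular cells. PIK3R1 in BF stood at 5.73, 5.71 and 5.93 FPKM on day 0, at 5.89, 4.58 and 6.33 on day 2, at 7.68, 8.10 and 7.62 on day 4 and at 12.8, 6.80 and 9.84 on day 8. PIK3R1 in IMF stood at 5.25, 5.97 and 4.19 FPKM, at 10.5, 9.76 and 11.4, at 12.1, 12.3 and 13.0 and at 16.3, 21.4 and 16.04. The depots overlapped on day 0, and from day 2 on every IMF library lay above every BF library of its day. The rise from IMF-0d to IMF-8d was 1.62 (SE 0.16, adjusted p = 2.01e-07) and was called in every fit without 1 library and under every other setting.

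On the log2 scale most of that difference was present by day 2, when IMF-2d minus IMF-0d was 0.92 (SE 0.16, adjusted p = 0.00139). This step missed the fold limit and was called at 1.03 with 0.1 added to FPKM. In FPKM the larger part came after day 2, with IMF means of 5.14, 10.5, 12.4 and 17.9 on days 0, 2, 4 and 8. The corresponding difference between BF-0d and BF-8d was 0.63 (SE 0.16, adjusted p = 0.00289), or 0.44 to 0.85 without 1 BF-8d library. IMF minus BF stood at 0.81 on day 2 (adjusted p = 0.00121), 0.61 on day 4 (adjusted p = 0.00464) and 0.83 on day 8 (adjusted p = 0.000496). Without 1 BF library of the day it was 0.70 to 0.89 on day 2 and 0.60 to 0.64 on day 4 (adjusted p up to 0.0107 and 0.0148), and on day 8 it was 0.61 without BF-8d replicate 2 and was called at 1.03 without BF-8d replicate 1. The change over 8 days differed between depots by 0.99 (SE 0.23, adjusted p = 0.00497), which missed the fold limit. The difference was called without BF-8d replicate 1 (1.18, adjusted p = 0.000572), IMF-0d replicate 2 or IMF-8d replicate 1 or 3 (1.05 to 1.08) and at 1.08 with 0.1 added to FPKM, and it was 0.77 without BF-8d replicate 2 (adjusted p = 0.0128). As IRS1 and PIK3R1 moved apart in IMF, PIK3R1 over IRS1 had medians of 0.698, 1.09, 1.42 and 5.70 on days 0, 2, 4 and 8, beside 0.969, 1.24, 1.74 and 1.66 in BF.

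AKT2, the AKT kinase most closely tied to insulin-stimulated glucose uptake, had the narrowest range of the 8 genes tested, with 1.60 between its highest and lowest group means. In BF it stood at 17.2, 16.9 and 17.4 FPKM on day 0, at 13.5, 12.5 and 18.1 on day 2, at 11.5, 11.4 and 10.5 on day 4 and at 13.9, 12.8 and 14.4 on day 8. In IMF it stood at 17.4, 16.8 and 19.2 FPKM, at 14.3, 14.3 and 15.5, at 15.4, 16.3 and 14.8 and at 12.9, 12.8 and 14.4. The depots overlapped on days 0, 2 and 8 and were separate on day 4, when BF was lowest. The day 4 difference was 0.44 (SE 0.11, adjusted p = 0.00237), or 0.40 to 0.46 without 1 BF-4d library, and that between IMF-0d and IMF-8d -0.39 (SE 0.11, adjusted p = 0.00741). Of the 12 comparisons of AKT2, 0 were called by limma and 7 had an unadjusted p under 0.05.

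FOXO1, a transcription factor that AKT phosphorylation keeps out of the nucleus, lay higher in every IMF library than in BF from day 2 on, and the difference was called on day 8. FOXO1 in BF stood at 6.89, 7.90 and 8.41 FPKM on day 0, at 9.12, 6.70 and 7.54 on day 2, at 5.90, 9.10 and 9.08 on day 4 and at 8.996, 5.60 and 6.46 on day 8. FOXO1 in IMF stood at 7.84, 8.19 and 6.95 FPKM, at 10.02, 9.83 and 10.5, at 11.03, 11.97 and 10.6 and at 13.6, 16.4 and 14.7. The 4 BF groups overlapped one another, whereas IMF-2d, IMF-4d and IMF-8d lay in the order of the days and above BF without overlap. Neither step between these IMF groups was called by limma. IMF-4d minus IMF-2d was 0.13 (adjusted p = 0.985) and IMF-8d minus IMF-4d was 0.38 (adjusted p = 0.0625). On day 8 the depots differed by 1.01 (SE 0.15, adjusted p = 4.70e-05), and the change from day 0 to 8 differed between depots by 1.02 (SE 0.22, adjusted p = 0.00277).

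Both calls of FOXO1 lay at the fold limit. The day 8 difference was 0.88 without BF-8d replicate 2, 0.94 without IMF-8d replicate 2, 0.96 without BF-8d replicate 3, and 0.89 and 0.91 under the other scalings of the libraries, with adjusted p of at most 0.000536. The difference in change fell below 1 without any of 5 libraries (BF-0d replicate 3, BF-8d replicates 2 and 3, IMF-0d replicate 3 and IMF-8d replicate 2), down to 0.89, and was 0.97 under both other scalings. Within IMF, day 8 minus day 0 was 0.88 (SE 0.15, adjusted p = 0.000151), and it was called at 1.01 under median ratio scaling. Within BF it was -0.14 (adjusted p = 0.478).

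PDE3B, which insulin activates to degrade cAMP and restrain lipolysis, had the widest range of the genes tested, with a ratio of 78.7 between its highest and lowest group means. The size of this ratio is uncertain. The lowest mean, 0.0487 FPKM in IMF-0d, lay near 0, and the highest, 3.83 FPKM in BF-2d, was raised by replicate 1. In BF it stood at 0.166, 0.271 and 0.311 FPKM on day 0, at 7.47, 3.27 and 0.751 on day 2, at 4.67, 4.14 and 2.27 on day 4 and at 1.28, 1.02 and 0.911 on day 8. The IMF libraries held 0.0369, 0.0198 and 0.0893 FPKM, at 0.137, 0.441 and 0.0734, at 0.209, 0.138 and 0.157 and at 0.862, 1.14 and 0.938. On days 0, 2 and 4 every BF library lay above every IMF library, and on day 8 the depots overlapped near 1 FPKM. PDE3B had already been singled out from these same samples, so its course is not independent support for the choice of genes.

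PDE3B rose from BF-0d to BF-2d by 1.68 on the log2 scale (SE 0.33, adjusted p = 0.000636). The value was 1.13 without BF-2d replicate 1, the highest library, and 2.27 without BF-2d replicate 3, the library nearest to day 0, and both stayed called. IMF minus BF was -1.72 on day 2 (SE 0.33, adjusted p = 0.00083), -1.18 without BF-2d replicate 1 and -2.32 without BF-2d replicate 3. With 0.1 in place of 1 added to FPKM the rise was 3.02 and the day 2 depot difference -3.31. With only the compared groups in the fit, these day 2 calls were lost, at an adjusted p of 0.0695 for the rise and 0.103 for the depots. On day 4 the depots differed by -1.97 (SE 0.33, adjusted p = 7.23e-05), a call kept in every fit without 1 library (-1.81 to -2.21) and under every other setting, at -3.77 with 0.1 added to FPKM.

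After day 4 the levels of PDE3B in the depots converged. BF-8d minus BF-4d was -1.14 (SE 0.33, adjusted p = 0.0192), called without BF-2d replicate 1, BF-2d replicate 3 or BF-4d replicate 3 (-1.38 in the last case, adjusted p = 0.00719). IMF-8d minus IMF-4d was 0.76 (SE 0.33, adjusted p = 0.0791) and was called at 2.01 with 0.1 added to FPKM (adjusted p = 0.00591). The change from day 4 to 8 differed between depots by 1.90 (SE 0.47, adjusted p = 0.00692). The difference was 1.75 to 2.14 over the 24 fits without 1 library, and the call was lost in 10 of them (adjusted p up to 0.0196) and when genes with lower values were also tested (adjusted p = 0.0141). The difference on day 8 was -0.06 (adjusted p = 0.905). Day 8 minus day 0 of PDE3B was 0.73 in BF (adjusted p = 0.074) and 0.91 in IMF (adjusted p = 0.034), and with 0.1 added to FPKM these were called at 1.76 (adjusted p = 0.00891) and 2.88 (adjusted p = 0.000242).

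SLC2A4, which encodes GLUT4, the insulin-responsive glucose transporter of fat and muscle, was near 0 in all groups. It was listed at 0 in all libraries of BF-0d, BF-4d and IMF-0d. In BF-2d it stood at 0.0227, 0.0348 and 0 FPKM and in BF-8d at 0.0749, 0.0637 and 0.0152. It stood at 0, 0 and 0.0922 FPKM in IMF-2d, at 0, 0 and 0.0205 in IMF-4d, and at 0.181, 0.191 and 0.186 in IMF-8d, the highest group and the one that did not overlap with any other. In a fit that kept genes with such low values, IMF-8d minus BF-8d was 0.17 (SE 0.026, adjusted p = 7.77e-05) and IMF-8d minus IMF-4d was 0.24 (SE 0.026, adjusted p = 3.65e-06). At such low values the added 1 sets the scale, so that a log2 difference of 1 could not be reached. The levels lay below those of the other transporter genes of the family in the list.

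Among these, SLC2A10 had group means of 4.92 ± 0.55 (SD, n = 3) in BF-8d to 9.63 ± 0.29 FPKM in IMF-4d. SLC2A8 ranged from 0.583 ± 0.054 FPKM in BF-8d to 3.24 ± 0.49 in BF-2d. SLC2A12, which encodes another transporter found in insulin-responsive tissues, had 0.966 ± 0.175, 0.769 ± 0.393, 0.488 ± 0.117 and 0.954 ± 0.541 FPKM in BF on days 0, 2, 4 and 8, and 2.91 ± 0.32, 3.28 ± 0.46, 2.53 ± 0.21 and 0.907 ± 0.086 in IMF. IMF lay above BF on days 0 to 4 and overlapped with it on day 8. The difference was called on day 2 (1.29, SE 0.16, adjusted p = 1.10e-05) and day 4 (1.25, SE 0.16, adjusted p = 3.98e-06), also without any 1 BF library of the day (1.19 to 1.47 and 1.19 to 1.303), and SLC2A12 fell from IMF-0d to IMF-8d by 1.03 (SE 0.16, adjusted p = 3.95e-05).

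**Figure D3:**
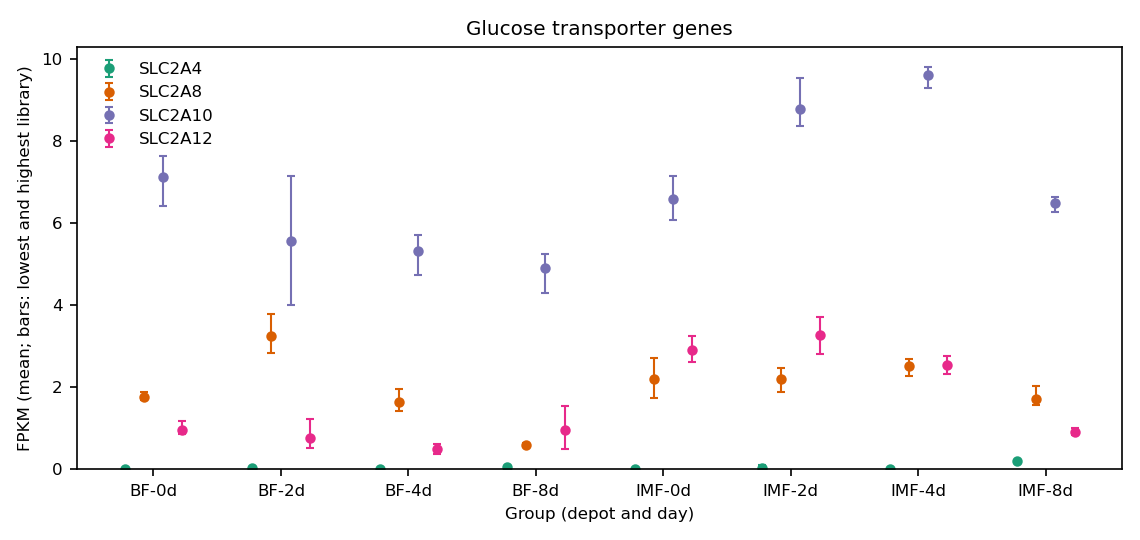
FPKM of SLC2A4, SLC2A8, SLC2A10 and SLC2A12 (vertical axis from 0) in the 8 groups named by depot and day; points are means of 3 replicates and bars span the lowest to the highest library. SLC2A4 lies at the baseline in every group, SLC2A10 is the highest of the 4 genes throughout, and SLC2A12 is higher in IMF than in BF on days 0, 2 and 4.

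Seen by comparison, the 8 tested genes were called 7 times in 96 gene-by-comparison tests of the 12 pairwise comparisons (3 higher, 4 lower), or 7.29%, beside 5.77% of all tests (3.11% higher, 2.66% lower). At an adjusted p under 0.05 without a fold limit the shares were 37.5% and 26.8%. Between BF-0d and BF-2d 1 gene was called (PDE3B) beside 6.59% of all genes, and between IMF-4d and IMF-8d 1 gene (IRS1) beside 7.25%. From day 0 to 8, GRB10 was called in BF beside 13.7% of all genes and PIK3R1 in IMF beside 9.04%. Between depots, PDE3B was called on day 2 beside 4.74% and on day 4 beside 11.3%, and FOXO1 on day 8 beside 6.96% of all genes. With 1 of 8 genes in each, these counts do not set the genes apart from the background. Over the 12 comparisons together 5 of the 8 genes were called at least once, beside 23.7% of all genes, and since the genes were chosen with results of these data known, nothing is read from that count.

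In the other 5 pairwise comparisons limma called 0 of the 8 genes. For BF-2d to BF-4d (3.35% of all genes called) 3 genes had an unadjusted p under 0.05, for BF-4d to BF-8d (2.93%) 4 genes, for IMF-0d to IMF-2d (0.787%) 4 genes, for IMF-2d to IMF-4d (0.0372%) 0 genes and for BF-0d to IMF-0d (2.58%) 2 genes. Of the tests of a difference between depots in a change, 2 genes (IRS1 and PDE3B) were called for days 4 to 8 beside 6.39% of all genes and 1 gene (FOXO1) for days 0 to 8 beside 4.98%. For days 0 to 2 (2.45%) and 2 to 4 (3.06%) limma called 0 genes, with 4 and 2 at an unadjusted p under 0.05. Without BF-8d replicate 2 the 3 calls of these differences became 0, and without BF-2d replicate 3 they became 5. Between the depots the median of the 8 genes was -0.097, 0.048, 0.45 and -0.039 on days 0, 2, 4 and 8, beside 0.025, 0.067, 0.069 and 0.045 over all genes tested. For the difference in change it was 0.24, -0.046, 0.046 and 0.60 over days 0 to 2, 2 to 4, 4 to 8 and 0 to 8, beside 0.024, -0.0025, -0.039 and 0.0094.

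**Figure D4:**
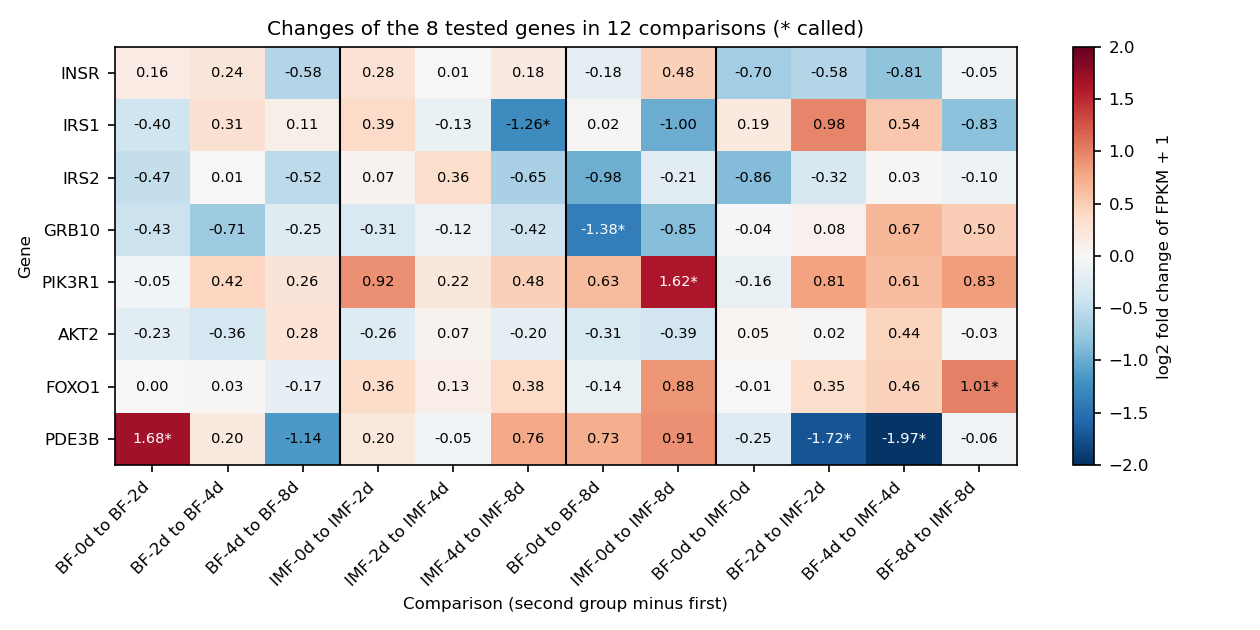
Log2 fold change of FPKM + 1 (colour and number, red higher and blue lower in the second group) of 8 genes (vertical) in 12 pairwise comparisons (horizontal), with an asterisk where the gene was called. The 7 called cells are PDE3B in 3 comparisons and IRS1, GRB10, PIK3R1 and FOXO1 in 1 each.

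The order of the group means differed from gene to gene. For PIK3R1 and FOXO1 the 3 highest groups were IMF-8d, IMF-4d and IMF-2d, for INSR the 4 highest were the BF groups, and for IRS1 IMF-8d was the lowest. For IRS2 each group overlapped with its neighbour in the order. For INSR 2 of the neighbouring pairs were separate (IMF-8d over IMF-4d and IMF-2d over IMF-0d). For GRB10 3 pairs were (IMF-0d over IMF-2d, IMF-4d over IMF-8d and BF-4d over BF-8d). The other neighbours of INSR and GRB10 overlapped. There were 2 separate pairs each for IRS1 and AKT2, and 3 each for PIK3R1, FOXO1 and PDE3B. The share of such pairs over all genes was not computed, so nothing is read from these counts. INSR in IMF-8d and IMF-4d parted at only 1.860 against 1.856 FPKM (limma adjusted p = 0.539). GRB10 in BF-4d and BF-8d differed with a limma adjusted p of 0.171.

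Across the 24 libraries, which share depots and days, the levels of PIK3R1 and FOXO1 went together (r = 0.811), as did those of GRB10 and AKT2 (r = 0.811) and those of INSR and PDE3B (r = 0.792), while AKT2 and PDE3B went in opposite directions (r = -0.74). For the 3 genes with the most calls, the tested genes with the most similar course over the 24 libraries were sought. For PDE3B these were SOAT1 (r = 0.977), SPRY3 (r = 0.957) and PLS1 (r = 0.950). For FOXO1 they were NOX4 (r = 0.851), LRRC46 (r = 0.847) and CPT1C (r = 0.817), and for IRS1 they were RND3 (r = 0.930), ITPRID2 (r = 0.881) and ARHGAP42 (r = 0.873).

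The remaining genes of the pathway were followed in 7 lists with 78 tested genes. They were called 68 times in 936 gene-by-comparison tests (42 higher, 26 lower), or 7.26% beside 5.77% of all tests, and 23 of the 78 genes (29.5%) were called at least once, beside 23.7% of all genes. The share of tests called in each list is given below beside the same 5.77%. From day 0 to 8 in BF 10 rose and 4 fell (6.28% and 7.39% of all genes), with a median of -0.039 beside -0.063 over all genes, and in IMF 6 rose and 6 fell (4.56% and 4.49% of all genes), with a median of -0.11 beside -0.053. The BF changes over 8 days given below for SOCS3, MYO1C, TBC1D1, HK2, ARRDC4, TXNIP, PPP1R3C and GYG1 stayed called without any 1 BF-8d library, for example at 1.099 to 1.42 for TBC1D1 and -1.60 to -2.15 for GYG1. Between BF-2d and BF-4d limma called 0 of 78 genes, with 35 at an unadjusted p under 0.05.

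**Figure D5:**
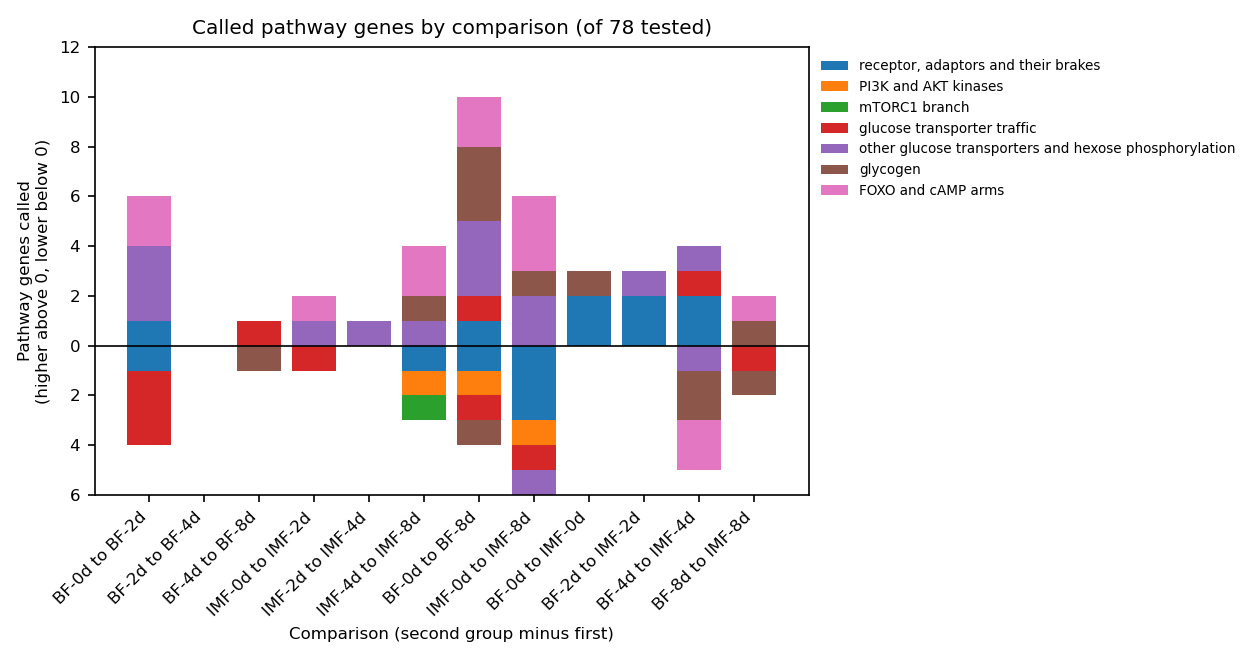
Number of pathway genes called (vertical axis, higher above 0 and lower below 0) among 78 tested in each of 12 pairwise comparisons (horizontal axis), coloured by list. The largest counts are 14 genes between BF-0d and BF-8d and 12 between IMF-0d and IMF-8d, and the count between BF-2d and BF-4d is 0.

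Of the receptor, its adaptors and their brakes, 4 of 14 genes were called at least once, 8 times higher and 6 times lower, or in 8.33% of the tests beside 5.77% over all genes. GAB1, a docking protein that recruits phosphoinositide 3-kinase, fell in both depots at different times. Its means in BF were 11.99 ± 0.84, 3.21 ± 2.4, 1.79 ± 0.17 and 1.19 ± 0.24 FPKM on days 0, 2, 4 and 8, and in IMF 11.2 ± 2.0, 8.96 ± 0.85, 11.13 ± 0.21 and 2.18 ± 0.42. GAB1 fell from BF-0d to BF-2d by 1.77 (SE 0.24, adjusted p = 1.44e-05) and from IMF-4d to IMF-8d by 1.94 (SE 0.24, adjusted p = 3.55e-06). The BF change was -1.43 to -2.20 without 1 BF-2d library and stayed called. The change of GAB1 differed between depots from day 0 to 2 (1.49, adjusted p = 0.00762) and from day 4 to 8 (-1.59, adjusted p = 0.00234). The first of these was 1.15 to 1.92 over the fits without 1 library and lost its call in 16 of 24 (adjusted p up to 0.0258), and the second kept it in all of them. In IMF both GAB1 and IRS1 thus fell in the same interval, days 4 to 8.

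SOCS3, an inhibitor that binds the receptor and targets IRS proteins for degradation, went in opposite directions in the depots. Its means were 7.09 ± 0.60, 27.5 ± 4.1, 30.8 ± 8.0 and 20.3 ± 4.1 FPKM in BF and 27.8 ± 3.6, 15.4 ± 2.4, 14.97 ± 1.7 and 10.5 ± 1.1 in IMF. SOCS3 rose from BF-0d to BF-8d by 1.38 (SE 0.18, adjusted p = 1.96e-06) and fell from IMF-0d to IMF-8d by 1.32 (SE 0.18, adjusted p = 6.43e-06), a difference between depots of -2.70 (SE 0.25, adjusted p = 3.23e-07). ENPP1, a membrane protein that binds the receptor and lowers its activity, was higher in IMF on days 0 (1.18, adjusted p = 0.000958), 2 (1.74, adjusted p = 1.52e-05) and 4 (1.47, adjusted p = 2.44e-05). Without 1 BF library of the day these were 1.56 to 2.02 on day 2 and 1.32 to 1.64 on day 4, all called.

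Of the phosphoinositide 3-kinase and AKT kinase list, 2 of 16 genes were called, 3 times in all and each time lower, or in 1.56% of the tests beside 5.77%. TRIB3, a pseudokinase that binds AKT, fell from IMF-0d (45.4 ± 3.2 FPKM) to IMF-8d (5.04 ± 0.63 FPKM), with a log2 fold change of -2.94 (SE 0.56, adjusted p = 0.00038), and MAPKAP1, a subunit of the kinase complex mTORC2, fell from BF-0d to BF-8d by 1.01 (SE 0.11, adjusted p = 4.91e-07), a value of -0.94 and no longer called without BF-8d replicate 2. Of the mTORC1 branch 1 of 9 genes was called, in 0.926% of the tests beside 5.77%. DEPTOR, an inhibitor of mTOR, fell from IMF-4d to IMF-8d by 1.26 (SE 0.22, adjusted p = 0.000167).

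Of the glucose transporter traffic list, 4 of 13 genes were called, 3 times higher and 7 times lower, or in 6.41% of the tests beside 5.77%. MYO1C, a motor protein of GLUT4 vesicles, fell over 8 days in BF by 1.32 (SE 0.20, adjusted p = 1.56e-05), from 61.5 ± 1.8 to 24.1 ± 0.84 FPKM, and in IMF by 1.05 (SE 0.20, adjusted p = 0.000296), from 80.8 ± 14 to 38.3 ± 5.9 FPKM. TBC1D1, a Rab regulator that AKT phosphorylates, rose from BF-0d to BF-8d by 1.295 (SE 0.17, adjusted p = 2.10e-06). RHOQ, the small GTPase TC10, was lower in IMF than in BF on day 8 (-1.18, SE 0.26, adjusted p = 0.0015, and -1.13 to -1.28 without 1 BF-8d library).

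Of the other glucose transporters and hexose phosphorylation genes, 4 of 7 were called, 13 times higher and 2 times lower, or in 17.9% of the tests beside 5.77% (3.11% higher and 2.66% lower). Among them were TXNIP and ARRDC4, arrestin-like proteins known as brakes on glucose uptake, and HK2, a hexokinase. HK2 had means of 4.92 ± 0.19, 12.2 ± 4.0, 15.9 ± 11 and 19.1 ± 2.2 FPKM in BF on days 0, 2, 4 and 8 and 10.6 ± 1.1, 9.36 ± 3.0, 4.68 ± 0.18 and 12.6 ± 2.2 in IMF. It rose over 8 days in BF by 1.76 (SE 0.30, adjusted p = 7.45e-05), and in IMF it rose from day 4 to 8 by 1.25 (SE 0.30, adjusted p = 0.00332). ARRDC4 rose over 8 days in BF by 2.38 (SE 0.20, adjusted p = 8.76e-09) and in IMF by 2.74 (SE 0.20, adjusted p = 2.65e-09). TXNIP rose in BF by 2.37 (SE 0.33, adjusted p = 6.79e-06), from 13.1 ± 1.7 to 71.5 ± 4.2 FPKM, and in IMF by 2.59 (SE 0.33, adjusted p = 4.27e-06), from 9.81 ± 1.8 to 63.9 ± 10 FPKM. In IMF the step in TXNIP came between days 2 and 4 (2.08, SE 0.33, adjusted p = 0.0057), and its change over that interval differed from BF by 2.11 (adjusted p = 0.00659), a call lost in 8 of 24 fits without 1 library (1.61 to 2.497, adjusted p up to 0.0202).

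Of the glycogen list, 5 of 10 genes were called, 7 times higher and 5 times lower, or in 12 of 120 tests beside 5.77% of all tests. PPP1R3C, which brings protein phosphatase to glycogen and had also been singled out from these samples, rose over 8 days in BF by 1.97 (SE 0.14, adjusted p = 1.39e-09) and in IMF by 1.39 (SE 0.14, adjusted p = 2.59e-07). GYG1, the primer of glycogen synthesis, fell in BF over 8 days by 1.87 (SE 0.29, adjusted p = 1.99e-05) and was higher in IMF on day 8 (26.1 ± 3.7 against 4.87 ± 2.2 FPKM, log2 difference 2.27, SE 0.29, adjusted p = 5.54e-06, and 1.995 to 2.55 without 1 BF-8d library). PPP1R3B, another glycogen-targeting subunit, was lower in IMF on day 4 (-1.38, adjusted p = 1.97e-05, and -1.27 to -1.58 without 1 BF-4d library) and rose from IMF-4d to IMF-8d by 1.45 (SE 0.20, adjusted p = 1.87e-05).

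Of the FOXO and cAMP list, 3 of 9 genes were called, 11 times higher and 2 times lower, or in 13 of 108 tests beside 5.77% of all tests (3.11% higher and 2.66% lower), and all 3 encode cAMP phosphodiesterases. PDE4D, like PDE3B, was higher in BF than in IMF on day 4, at 28.5 ± 4.1 against 2.57 ± 0.27 FPKM (-3.04, SE 0.43, adjusted p = 1.19e-05, and -2.95 to -3.15 without 1 BF-4d library). In IMF, PDE4D rose from day 4 to 8 by 2.44 (SE 0.43, adjusted p = 0.000199), to 18.6 ± 4.0 FPKM. PDE4B rose from day 0 to 2 in BF by 3.49 (SE 0.34, adjusted p = 4.24e-07), or 3.28 to 3.61 without 1 BF-2d library, and in IMF by 2.56 (SE 0.34, adjusted p = 9.43e-05). PDE3A, the close relative of PDE3B, was higher in IMF on day 8 (12.2 ± 2.4 against 5.46 ± 1.6 FPKM, log2 difference 1.04, SE 0.23, adjusted p = 0.00164), a call lost at 0.89 without BF-8d replicate 2 (adjusted p = 0.0131). The change of PDE3A from day 4 to 8 differed between depots by 1.43, in the same direction as that of PDE3B.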

How the data were processed

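The authors filtered the reads, mapped them to Sscrofa11.1 with HISAT2, and assembled and quantified transcripts with StringTie 1.3.4d. They deposited FPKM values, in which gene length and library size were already divided out. How reads of shared sequence or of either strand were counted is not given in the sources used here. No read counts could be recovered (at most 2.12% of low genes lay on 1 ratio between libraries), so DESeq2, which the authors used for their own calls, was not run. The study lists sequencing totals per sample, which were not used here, and the depth behind each value is unknown from the deposited table.

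Values of log2(FPKM + 1) were fitted for the 16135 genes whose FPKM summed over the 24 libraries exceeded 1, with 1 mean per group, by limma 3.58.1 (R 4.3.3) with a robust, trended eBayes step. There were 12 pairwise contrasts and 4 contrasts of the difference between depots in a change. The fit recovered changes set in simulated data. Those changes exceeded the fold limit, were set only in genes of higher level, and had the same spread in every group. The simulation therefore says nothing of calls near the fold limit, of genes near 0 or of groups with unequal spread. The authors' thresholds were kept. Groups came from the labels. Alternatives were another pseudocount (0.1), other filters, scalings, fits and thresholds, a replicate term, and leaving out each library.

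Gene symbols came from a table of Ensembl IDs that named 14815 of the 25462 rows. AKT1, SLC2A1 and SLC2A3 were not analysed here. The genes and lists were chosen with earlier results of these data known. Named were the 10 genes, up to 3 pathway genes per list with the most calls, and the 3 genes most correlated with each of the 3 genes with the most calls. HK2, SLC2A8 and SLC2A10 were named after their values were seen. Promoter windows are the 250 bases before the RefSeq gene start in Sscrofa11.1. Of the 24 libraries, 0 pairs held identical values. Small RNA libraries were not used here.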

Additional observations from a re-analysis of the deposited data

Results flagged for a closer look

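Where the test of the difference between depots was itself called, the course of a gene over an interval differed between IMF and BF. Values are IMF change minus BF change on the log2(FPKM + 1) scale, with limma's adjusted p, and no cause of them was tested.

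From day 0 to 2 the differences were 1.49 for GAB1, which fell in BF, and -2.62 for SOCS3, which rose in BF (adjusted p = 3.82e-06). From day 2 to 4 the difference was 2.11 for TXNIP, which rose in IMF.

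From day 4 to 8 the differences were -1.37 for IRS1, which fell in IMF, and 1.90 for PDE3B. Over the same interval GAB1 differed by -1.59, SLC2A12 by -1.25, PPP1R3B by 1.86, GYG1 by 2.13, PDE3A by 1.43 and PDE4D by 3.48.

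Over days 0 to 8 the differences were 1.02 for FOXO1, -2.70 for SOCS3, 2.42 for GYG1 and 1.40 for PDE3A.

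Over the 24 fits without 1 library, limma's call of the difference was lost in 16 for GAB1 over days 0 to 2, in 8 for TXNIP, in 10 each for IRS1 and PDE3B, in 5 for FOXO1, and for PDE3A in 6 over days 4 to 8 and 9 over days 0 to 8. The other differences given here stayed called in all 24.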

How the results depend on the processing

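No change of the 8 genes that was called changed sign under any alternative run. GRB10 from BF-0d to BF-8d, PIK3R1 from IMF-0d to IMF-8d, IRS1 from IMF-4d to IMF-8d and PDE3B between the depots on day 4 were called under all of them. The number of calls of the 8 genes was 1 for the BF intervals, 1 for the IMF intervals, 2 for day 8 against day 0, 3 between depots and 3 for differences in change. With an adjusted p under 0.05 and no fold limit these became 5, 5, 10, 16 and 11. With a pseudocount of 0.1 they became 3 for the IMF intervals, 6 for day 8 against day 0 and 7 between depots, and with only the compared groups in the fit 0 for the BF intervals. Leaving out 1 library gave 1 to 2, 1 to 2, 2 to 3, 2 to 4 and 0 to 5 (0 without BF-8d replicate 2, 5 without BF-2d replicate 3). For the pathway genes the numbers were 12, 11, 26, 19 and 13. They became 62, 45, 69, 102 and 51 without the fold limit, 31 between depots with the pseudocount of 0.1, and 3 for the BF intervals with only the compared groups. Leaving out 1 library gave 7 to 17 (7 without BF-8d replicate 2, 17 without BF-2d replicate 1), 8 to 11, 24 to 28, 18 to 25 and 10 to 18. The causes of these shifts were not tested, beyond the looser threshold itself and the lower weight of small values under the pseudocount of 1.

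The labels do not say whether libraries with the same replicate number share an animal. The correlations below cannot exclude it, since each group holds 3 libraries and some of these stood apart. Over 84 pairs of groups and numbers, the deviations of same-numbered libraries correlated at -0.454 to 0.457 (median 0.001), 9 of the 84 were above 0.1, and 10 of 24 libraries correlated best with their own number. With a replicate block the calls of the 8 genes were 1, 1, 2, 3 and 3, and those of the pathway genes 9, 10, 26, 19 and 12.

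Median ratio scaling and quantile normalization moved the median change of all genes by at most 0.088 on the log2 scale. The deposited table holds no read counts, so no counting error was computed for genes near 0, such as SLC2A4.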
